A study of Mus musculus with 30 samples.

Results

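The *Zfp900*-series zinc finger genes were studied in single mouse embryos with and without *Dis3*, the catalytic ribonuclease of the RNA exosome. The set holds every GENCODE vM21 protein-coding gene of the count tables whose symbol is Zfp followed by 3 digits beginning with 9, which gave 63 genes of 55487 in all. Membership rests on the names alone and uses no measured value. The transcribed pseudogene *Zfp939* and the genes *Zfp955a* and *Zfp955b*, whose symbols carry a letter, stayed outside. The other 302 Zfp genes of the tables served as a comparison.

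All 23 embryos came from matings of *Dis3* heterozygous (het) mice, and the null allele, made with CRISPR/Cas9, lacks exons 3 to 5 of *Dis3*. The E2.5 embryos comprised 6 wild-types, 2 hets and 4 homozygous nulls, and the E2.75 embryos 3 wild-types, 5 hets and 3 nulls. Polyadenylated RNA of each embryo was sequenced with ERCC spike-ins and its genomic DNA was used for genotyping, so that 1 embryo is 1 replicate. Binding of the POU-homeodomain factor POU6F1 was measured by ChIP-seq in embryonic stem cells derived from *Dis3* flox/flox blastocysts, 48 h after transfection with *Pou6f1-mCherry* under the CAG promoter, in 2 replicates.

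Zinc finger genes of this kind usually encode a KRAB domain followed by an array of C2H2 fingers. The fingers read DNA sequence, often within transposable elements, and the KRAB domain recruits the corepressor TRIM28 (KAP1), which brings in the histone methyltransferase SETDB1 and heterochromatin proteins. The genes arise by tandem duplication, so that neighbours can be near copies of each other, and deletions of such clusters in mice are known to let transposable elements become active.

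The libraries held 1690192 to 14015980 counts on genes, with a median of 8030848, and the 3 null embryos of E2.75 lay between 1690192 and 7051002. Of the reads in null embryos 32.3% to 43.9% did not lie wholly within annotated exons, against 21% to 33.4% elsewhere. *Dis3* itself was at 85.2 ± 52.3 CPM (counts scaled to a fixed library size with TMM normalization, SD, n = 6) in wild-type, 58.7 ± 0.681 (n = 2) in het and 8.22 ± 8.12 (n = 4) in null embryos of E2.5, and at 94.3 ± 26 (n = 3), 40.6 ± 7.29 (n = 5) and 14.8 ± 5.98 (n = 3) at E2.75, in the order the genotypes give. All 8 markers of the cleavage-stage embryo were over 1 CPM in every group, and their sum ranged from 5876 to 21606 CPM. The sum of 7 cumulus or granulosa cell markers was between 0 and 18.9 CPM, with *Ptx3* and *Inhba* at 0 counts, and that of 5 blood or stroma markers between 0 and 5.8 CPM, with *Hbb-bs* at 0 counts.

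Most members lay in clusters. Members of 1 chromosome were joined where neighbours started within 1 Mb, and this placed 43 of the 63 in 5 clusters of 3 or more, 2 in a pair (*Zfp934* and *Zfp935* on chromosome 13) and 18 alone. In GRCm38 the clusters are chr2:175372436-178078476 with 10 members, chr4:145510759-147848366 with 16, chr7:42579783-43192109 with 4, chr8:69209038-69749970 with 3 and chr17:21567008-22867134 with 10. In the proteins translated from the annotated coding sequences, 59 of 63 members held at least 3 C2H2 fingers and 42 matched a pattern of the KRAB domain. Both features were found in 41 members (65.1%), against 34.8% of the other Zfp genes and 1.02% of all protein-coding genes. In the chromosome 4 cluster 14 of its 16 genes had no match to the KRAB pattern, and *Zfp982* and *Zfp933* had one. A missing match says only that these residues were not found, not that the protein has no such domain.

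How far the members can be measured depends on how unique they are. Of all 50-base words of a gene's exons, the share that occurs once in the genome had a median of 71.9% over the members and 99.4% over the other Zfp genes. It was under 50% for 26 of the 63 members and for 7 of the 302 other Zfp genes. The tables count uniquely aligned reads, so reads from the repeated stretches are missing from them. In the chromosome 2 cluster *Zfp965* to *Zfp969* had 0.0% unique words and *Zfp973* had 0.6%; *Zfp966*, *Zfp967*, *Zfp968* and *Zfp969* encode the same protein of 485 residues, and *Zfp965* and *Zfp973* the same protein of 318 residues. These 6 genes gathered between 0 and 41 counts over all 23 embryos. Their low counts are therefore no measure of low expression. *Zfp935*, with 0 counts, is another such case, as all of its exon bases are shared with neighbours on the same strand (*Zfp934* among them), and the counting leaves such reads out.

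**Figure D1:**
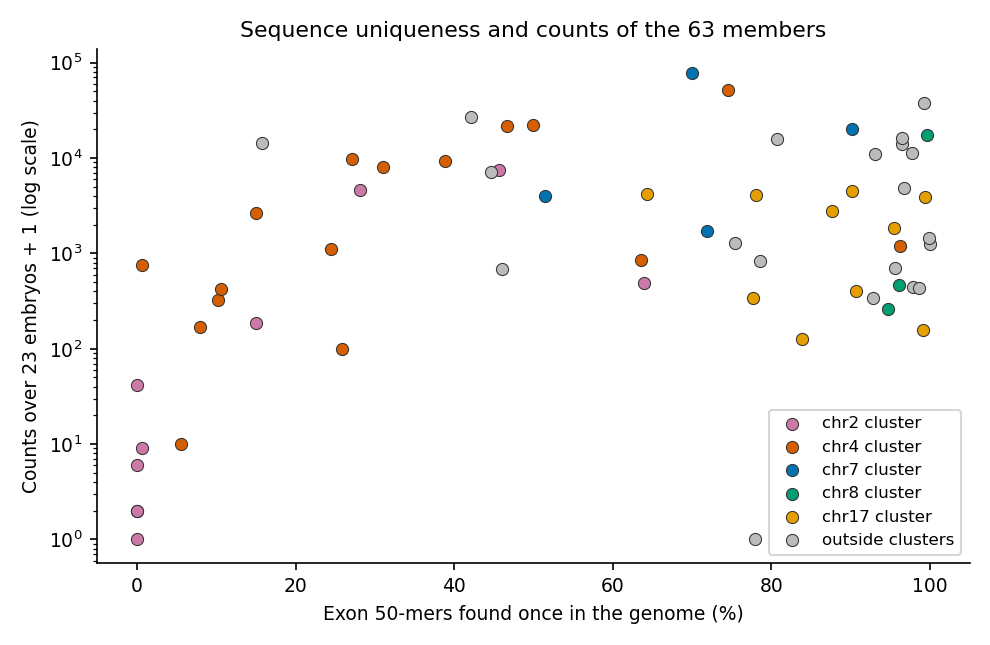
Each point is 1 of the 63 members, coloured by cluster; the x axis gives the percentage of exon 50-mers found once in the genome and the y axis the counts over 23 embryos plus 1, on a log scale. The chromosome 2 genes with almost no unique words sit at 0 to 41 counts, and the member with the highest count, Zfp936 of the chromosome 7 cluster, has 70% unique words.

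The promoters show the near copies directly. The RefSeq promoter table (GRCm38.p6) held 53 of the 63 members. For the genes on which the comparisons turn, the 120 bases before and 30 bases from the start site are given, 5′ to 3′ on the strand of the gene, with CCAAT and its reverse complement ATTGG in capitals. The first 4, *Zfp985*, *Zfp979*, *Zfp981* and *Zfp984*, come from the chromosome 4 cluster (chr4:147553157-147553306 on the plus strand, chr4:147642479-147642628 on the minus strand, chr4:146514800-146514949 on the plus strand and chr4:147809759-147809908 on the minus strand).
Zfp985: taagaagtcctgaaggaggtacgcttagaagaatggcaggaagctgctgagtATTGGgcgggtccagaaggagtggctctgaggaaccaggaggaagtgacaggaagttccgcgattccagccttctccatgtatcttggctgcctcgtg
Zfp979: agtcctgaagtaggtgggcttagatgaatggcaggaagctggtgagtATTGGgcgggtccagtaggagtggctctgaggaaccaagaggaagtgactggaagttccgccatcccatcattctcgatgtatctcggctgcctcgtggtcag
Zfp981: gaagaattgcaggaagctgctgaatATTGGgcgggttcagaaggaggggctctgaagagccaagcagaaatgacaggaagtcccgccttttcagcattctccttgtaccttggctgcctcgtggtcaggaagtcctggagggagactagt
Zfp984: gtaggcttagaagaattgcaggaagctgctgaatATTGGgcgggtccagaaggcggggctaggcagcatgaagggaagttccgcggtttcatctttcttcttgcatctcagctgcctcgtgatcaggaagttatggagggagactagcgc
*Zfp936* and *Zfp975* belong to the chromosome 7 cluster (chr7:43177470-43177619 on the plus strand and chr7:42692689-42692838 on the minus strand) and *Zfp937* lies alone (chr2:150217979-150218128 on the plus strand).
Zfp936: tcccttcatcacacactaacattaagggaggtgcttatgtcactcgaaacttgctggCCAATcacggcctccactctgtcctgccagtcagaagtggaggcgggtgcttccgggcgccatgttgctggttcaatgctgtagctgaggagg
Zfp975: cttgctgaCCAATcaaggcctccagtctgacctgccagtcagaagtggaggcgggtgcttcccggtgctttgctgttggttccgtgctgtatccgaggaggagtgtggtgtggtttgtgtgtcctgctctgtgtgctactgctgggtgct
Zfp937: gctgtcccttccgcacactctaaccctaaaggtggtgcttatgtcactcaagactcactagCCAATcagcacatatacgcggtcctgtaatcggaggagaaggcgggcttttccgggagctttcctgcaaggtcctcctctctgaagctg

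After pairwise alignment, the identical bases were taken as a share of the 300 bases of each promoter in the table. The median was 87% between 2 chromosome 2 members, 80.8% between 2 chromosome 7 members and 59% between members that share no cluster. The chromosome 4 cluster was mixed, with a median of 59.3% and pairs up to 91.3%, and among the promoters shown *Zfp985* and *Zfp979* shared 86.7%. The CCAAT box, known as a binding site of the factor NF-Y, was present on either strand in 40 of the 53 member promoters (75.5%), against 45.3% of the other Zfp promoters and 37.9% of all 27025 promoters of the table. In 32 of these 40 it lay between 110 and 40 bases before the start. The longer CCAATCA, which contains it, was found in 54.7%, 15% and 8.2%, in that order. The run ATTGGGCGGG, which also holds the box, was picked after it was seen in the chromosome 4 promoters; it occurred in 8 members (15.1%) and in 0.133% of all promoters. TATAAA was found in 0 member promoters, against 14.2% of all promoters. CG dinucleotides numbered 8 per member promoter at the median, 15 in other Zfp promoters and 7 in all. Promoters of near copies are not independent of each other, and the motifs were chosen after the data were seen, so these shares are descriptions.

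Expression was spread very unevenly over the members. Between 44 and 56 members had counts in an embryo, with 44 to 49 in the E2.75 null libraries, and 32 had counts in all 23. The mean level was at least 10 CPM for 29 members and under 1 CPM for 11. *Zfp936* alone gave 17.8% of the summed CPM of all members, the first 5 gave 47.5% and the first 20 gave 89.6%. Per kb of exon, the highest mean levels were those of *Zfp936* (140 CPM per kb), *Zfp985* (94.9), *Zfp958* (88.1), *Zfp977* (78.7) and *Zfp932* (49.6). Where exon words are repeated these levels are too low, as may hold for *Zfp932*, of whose words 42.1% are unique.

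With TMM scaling, the members differed between the stages. The summed level of the 63 members was 3296 ± 551 CPM (SD, n = 12) at E2.5 and 1784 ± 285 CPM (n = 11) at E2.75. The 12 embryos of E2.5 ranged from 2466 to 4151 CPM and the 11 of E2.75 from 1225 to 2133 CPM, so that the stages did not overlap in any genotype. The other 302 Zfp genes summed to 9288 ± 786 and 7985 ± 745 CPM, and their ranges overlapped (8107 to 10793 and 6716 to 8931 CPM). Members with at least 50% unique words went from 2272 ± 434 to 1252 ± 232 CPM and those under 50% from 1023 ± 153 to 532 ± 96.4 CPM. The sum of 7 oocyte markers of maternal RNA also differed between the stages without overlap, from 34.2 to 83.3 CPM at E2.5 and from 3.38 to 21.3 CPM at E2.75, and so did that of the 8 cleavage-stage markers, at 10826 to 21606 and 5876 to 8666 CPM. *Dppa3*, at 8097 CPM on average over all embryos, made up most of the cleavage-stage sum. The others of that list averaged 119 to 1019 CPM. The part of these sums in the result was not tested. As whole embryos were sequenced, fewer cells that express a gene and less RNA per cell cannot be told apart.

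**Figure D2:**
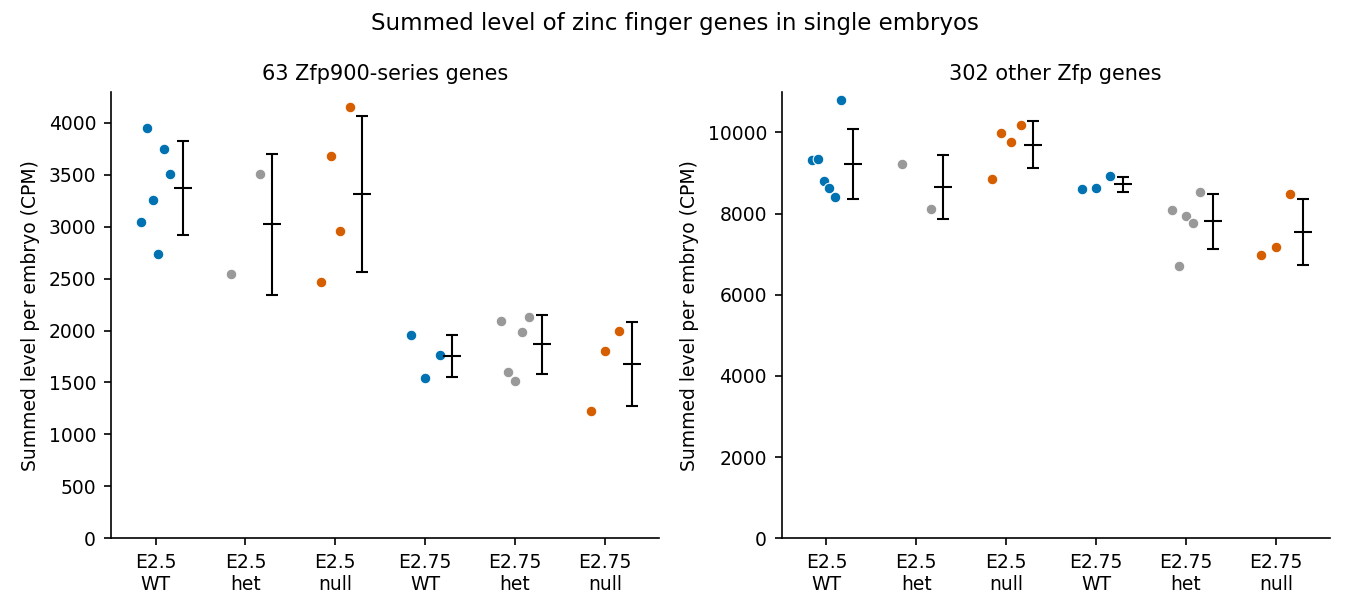
Summed level per embryo in CPM for the 63 members (left) and the 302 other Zfp genes (right) in the 6 groups of stage and genotype; points are embryos, and the bars give the mean ± SD. Every E2.75 embryo lies below every E2.5 embryo on the left (1225 to 2133 against 2466 to 4151 CPM), while the ranges overlap on the right.

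In wild-type embryos 4 of 54 tested members fell from E2.5 to E2.75 and 0 rose, by edgeR's quasi-likelihood test (Benjamini-Hochberg adjusted p below 0.1, with a log2 fold change of more than 1 in size). Over all genes tested, 3.64% fell and 3.74% rose. The members that fell were *Zfp936* (log2 fold change -1.38, SE 0.28, adjusted p = 0.00465), *Zfp985* (-1.72, adjusted p = 0.00912), *Zfp984* (-1.37, adjusted p = 0.0216) and *Zfp975* (-1.69, adjusted p = 0.0496). The median log2 fold change was -0.76 over the tested members, -0.00 over all genes and 0.11 over the other Zfp genes, of which 8 rose and 4 fell among 269. *Zfp936* and *Zfp985* were called in all 23 fits that left out 1 embryo, while the call of *Zfp975* was lost without any 1 of the 3 wild-type embryos of E2.75 and that of *Zfp984* without replicate 3 of them, which left 2 members called.

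All 23 embryos were also compared by stage with genotype as a covariate, a test added after the data were seen. Of 45 tested members 13 fell and 1 rose, against 5.13% and 7.08% of all genes, and 38 of the 45 lay below 0. The median was -0.80 over the members and 0.02 over all genes. The chromosome 7 cluster fell as a whole, with *Zfp936* (-1.33, SE 0.17, adjusted p = 1.3e-05), *Zfp975* (-1.20), *Zfp976* (-1.42) and *Zfp977* (-1.12) all called. In the chromosome 4 cluster 5 of 13 tested members were called, namely *Zfp978* (-1.38, adjusted p = 0.00051), *Zfp979* (-1.07), *Zfp980* (-1.09), *Zfp984* (adjusted p = 0.00243) and *Zfp990* (-1.41). *Zfp971* of chromosome 2 (-1.12), *Zfp948* of chromosome 17 (-1.01), *Zfp958* (-1.05) and *Zfp959* (-2.70) made up the rest of the members that fell, and *Zfp937* rose (1.88, adjusted p = 0.0745). Of the 29 tested members with at least 50% unique words 8 were called. Over 23 fits that left out 1 embryo, *Zfp936*, *Zfp975* and *Zfp978* were called in all, *Zfp990* in 14, *Zfp984* in 9 and *Zfp948* in 7. Without replicate 2 of the E2.75 wild-type embryos 7 members were called.

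These changes are relative to the other genes of an embryo. When the libraries were scaled to the ERCC spike-ins instead, the median over all genes moved to 0.82 and that over the members to 0.15, so the direction of the members' median turned while it stayed below that of all genes. With this scaling 0 of 45 members fell and 5 rose over all genotypes, where 50 of all 11511 genes fell and 3717 rose. *Zfp936* was then at -0.45 (SE 0.22, adjusted p = 0.106). In wild-type embryos the scaling gave medians of 0.26 and 0.89 and 0 called members, where 59 of all 18677 genes fell and 3218 rose.

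The 2 stages of *Zfp936* did not overlap in CPM with TMM scaling. How many of all genes are apart in this way was not counted. The E2.5 wild-type embryos had 480, 746, 644, 463, 658 and 575 CPM and those of E2.75 had 211, 246 and 229 CPM. In het embryos it was at 380 and 559 CPM and then at 279, 197, 162, 245 and 336 CPM, and in null embryos at 673, 1048, 604 and 941 CPM and then at 187, 265 and 377 CPM. The highest E2.75 embryo, a null at 377 CPM, lay just under the lowest E2.5 embryo, a het at 380 CPM. The gene lies at chr7:43114229-43192109 on the plus strand.

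From E2.5 to E2.75, 7 of 54 members fell and 1 rose in null embryos, against 1.77% and 1.24% of all genes. *Zfp936* (-1.57, SE 0.29, adjusted p = 0.0108) was called here as well. The others that fell were *Zfp934* (-2.14, adjusted p = 0.0275), *Zfp978* (-1.81, adjusted p = 0.045), *Zfp960* (-1.38, adjusted p = 0.062), *Zfp958* (-1.57, adjusted p = 0.0634), *Zfp977* (-1.60, adjusted p = 0.0953) and *Zfp950* (-1.43, adjusted p = 0.0973). The median was -0.83 over the members and 0.00 over all genes, and with the spike-in scaling 0.17 and 0.97. With that scaling 0 members fell and 2 rose, where 39 of all 18677 genes fell and 1969 rose. *Zfp950* and *Zfp977* were called in 7 and 9 of the 23 fits without 1 embryo. The count moved to 2, 3 and 4 members without replicates 3, 1 and 2 of the E2.75 null embryos, and to 5 without replicate 2 or replicate 3 of those at E2.5. Het embryos, of which only 2 were at E2.5, gave 0 called members (9 at an unadjusted p under 0.05, 2 with DESeq2), against 0.00535% of all genes called up and 0.273% called down, with a median of -0.50 over the members and 0.12 over all genes. The 3 stage comparisons use different embryos but 1 estimate of the spread.

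**Figure D3:**
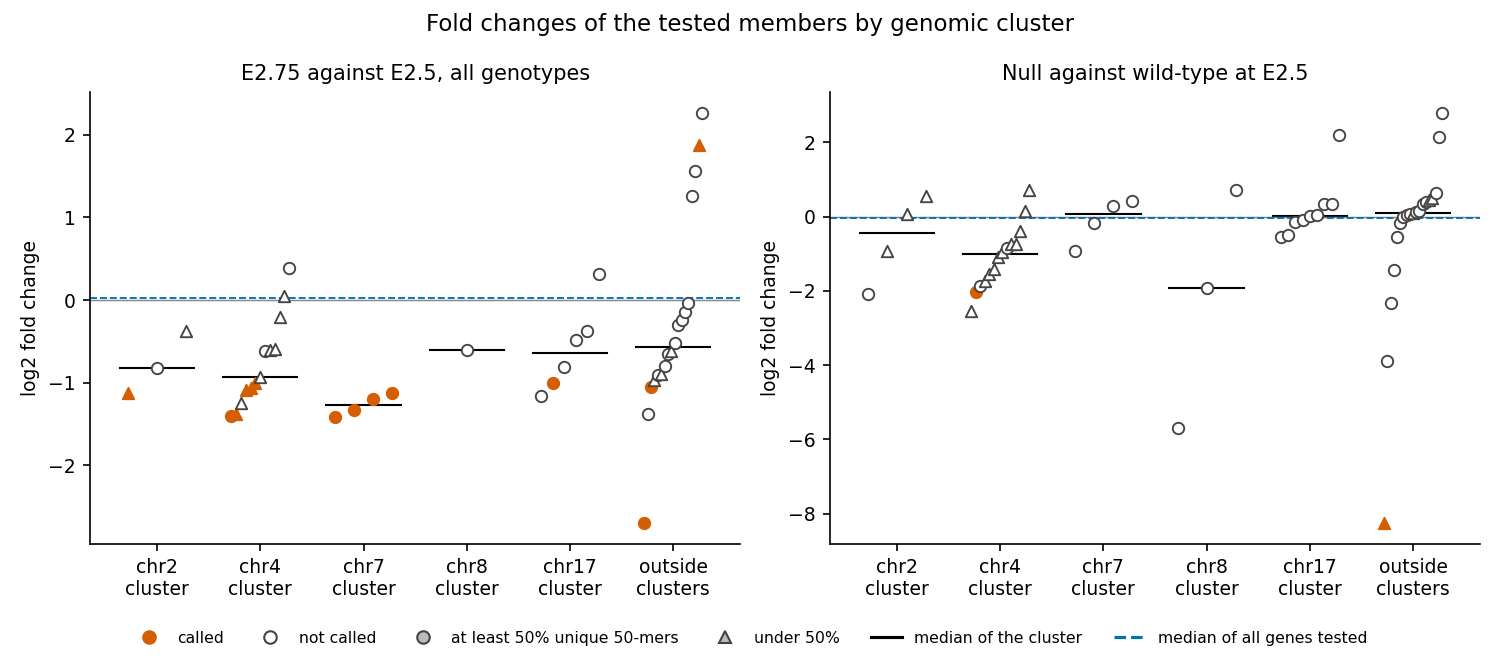
Log2 fold change of each tested member by genomic cluster, for E2.75 against E2.5 over all genotypes (left) and null against wild-type at E2.5 (right); orange symbols are called, triangles have under 50% unique 50-mers, black lines are cluster medians and the dashed line is the median of all genes tested. All 4 chromosome 7 genes are called on the left, and on the right the chromosome 4 genes have a median of -1.02, with Zfp985 called; the fitted value of Zfp937 at -8.25 comes from a null group with 0 counts and depends on the prior count.

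With the stages merged and TMM scaling, few members were called between genotypes. In null against wild-type embryos 3 of 51 tested members fell and 0 rose, where 1.59% of all genes fell and 3.66% rose. They were *Zfp985* (-1.30, SE 0.37, adjusted p = 0.0417), *Zfp937* (-3.49, SE 1.05, adjusted p = 0.0593) and *Zfp981* (-1.04, SE 0.32, adjusted p = 0.0698). In null against het embryos *Zfp985* fell (-1.22, SE 0.38, adjusted p = 0.0706) and *Zfp960* rose (1.01, SE 0.31, adjusted p = 0.0709), that is 1 member in each direction, where 2.06% of all genes fell and 3.67% rose. Both comparisons use the same null embryos. With the spike-in scaling 20 of 51 members fell in null against het embryos, where 4487 of all 13415 genes fell, and the medians were -1.18 over the members and -1.08 over all genes. Against wild-type embryos 6 members fell, where 469 of all genes fell, with medians of -0.74 and -0.37. The median over the members was -0.31 against wild-type and -0.09 against het, and over all genes -0.02 and 0.02. In het against wild-type embryos 0 members were called by edgeR (2 at an unadjusted p under 0.05, 0 by DESeq2), as were 0% of all genes up and 0% down, and the members' median was -0.40 against -0.03 for all genes. Of all 13415 genes 934 had an unadjusted p under 0.05 there, and DESeq2 called 37 up and 28 down of 18422. The genotypes were not balanced over the stages, with 5 of 7 het embryos at E2.75 against 3 of 9 wild-type ones. With stage as a covariate that het median was -0.10, *Zfp985* was at -1.04 (adjusted p = 0.106) against wild-type and at -1.25 (adjusted p = 0.0422) against het, and *Zfp960* was at 0.73 (adjusted p = 0.173). *Zfp937* was then the only member called against wild-type (-4.45, adjusted p = 0.0113), while *Zfp981* stayed under the adjusted p but short of the fold (-0.91, adjusted p = 0.0244).

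*Zfp985* is among the members of highest level, and it differed between genotypes at E2.5. It lies at chr4:147553277-147585198 on the plus strand, with 74.5% unique words and 10 fingers in its protein. At E2.5 the wild-type embryos were at 380, 456, 405, 373, 546 and 490 CPM, the het embryos at 304 and 632 CPM and the null embryos at 79.2, 102, 53.1 and 206 CPM. All 4 null embryos lay below all 8 others. The log2 fold change against wild-type at that stage was -2.04 (SE 0.34, adjusted p = 0.0154), one of 2 members called down and 0 called up, where 0.459% of all genes fell and 1.36% rose. With any 1 of the 12 embryos left out it remained called and lay between -2.51 and -1.81, and with the spike-in scaling it was -2.49 (adjusted p = 0.0198). The null libraries of E2.5 also had the highest shares of reads not wholly within exons at that stage (32.3% to 39.5%, against 21% to 25.9% in the other genotypes). The part of these shares in the difference was not tested. Against the 2 het embryos *Zfp985* was at -2.15 (SE 0.41, adjusted p = 0.17). That comparison called 0 of 53 members by edgeR (8 at an unadjusted p under 0.05, 2 by DESeq2) and 0% of all genes up and 0.0126% down. Of all 15904 genes 1473 had an unadjusted p under 0.05, and DESeq2 called 449 up and 149 down of 14985.

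At E2.75 the groups overlapped. *Zfp985* was at 190, 88.9 and 124 CPM in wild-type, at 297, 385, 121, 251 and 258 CPM in het and at 156, 157 and 209 CPM in null embryos. The wild-type and null ranges overlapped in part, with all 3 null embryos above 2 of the 3 wild-type ones, and the highest levels were in het embryos. The interaction of stage with null against wild-type, a test added after the data were seen, was 2.38 for *Zfp985* (SE 0.53, unadjusted p = 0.00013, adjusted p = 0.203), which did not pass the threshold. That interaction called 0 of 54 members (7 at an unadjusted p under 0.05, 3 by DESeq2) and 0% of all genes up and 0% down. Of all 18677 genes 2046 had an unadjusted p under 0.05, and DESeq2 called 220 up and 124 down of 15748. The planned interaction of stage with null against het called 0 members as well (4 at an unadjusted p under 0.05, 0 by DESeq2), with 0% of all genes up and 0% down, and gave 1.50 for *Zfp985* (SE 0.55, adjusted p = 0.741).

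*Zfp937* had no counts in E2.5 null embryos. All 4 were at 0 counts, while the 6 wild-type embryos of E2.5 had 17 to 59 counts and the 2 het embryos 17 and 25. A group total of 0 allows up to 3 counts, so the level was at least 32.2-fold lower than in wild-type and at least 17-fold lower than in het embryos, pooled over each group, which covers counting error only. The gene lies alone at chr2:150218073-150240725 on the plus strand, and 46% of its exon words are unique. Against wild-type at E2.5 it was called with an adjusted p of 0.0532, a call lost without null replicate 2 or 4 or wild-type replicate 3. At E2.75 the null embryos had 1, 0 and 23 counts (0.493, 0 and 3.18 CPM), the wild-type embryos 66, 56 and 57 counts (17.6, 6.24 and 5.78 CPM) and the het embryos 2 to 113 counts (0.603 to 7.32 CPM). Replicate 3 thus held nearly all the counts of the null embryos, and the rise called from E2.5 to E2.75 in null embryos (fitted log2 fold change 6.33, adjusted p = 0.045, not a bound) was lost without it, at 3.96. With the stages merged, leaving that embryo out took the fitted difference against wild-type from -3.49 to -6.64, and the call was lost without E2.5 null replicate 4, E2.75 null replicate 2 or E2.75 wild-type replicate 1.

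**Figure D4:**
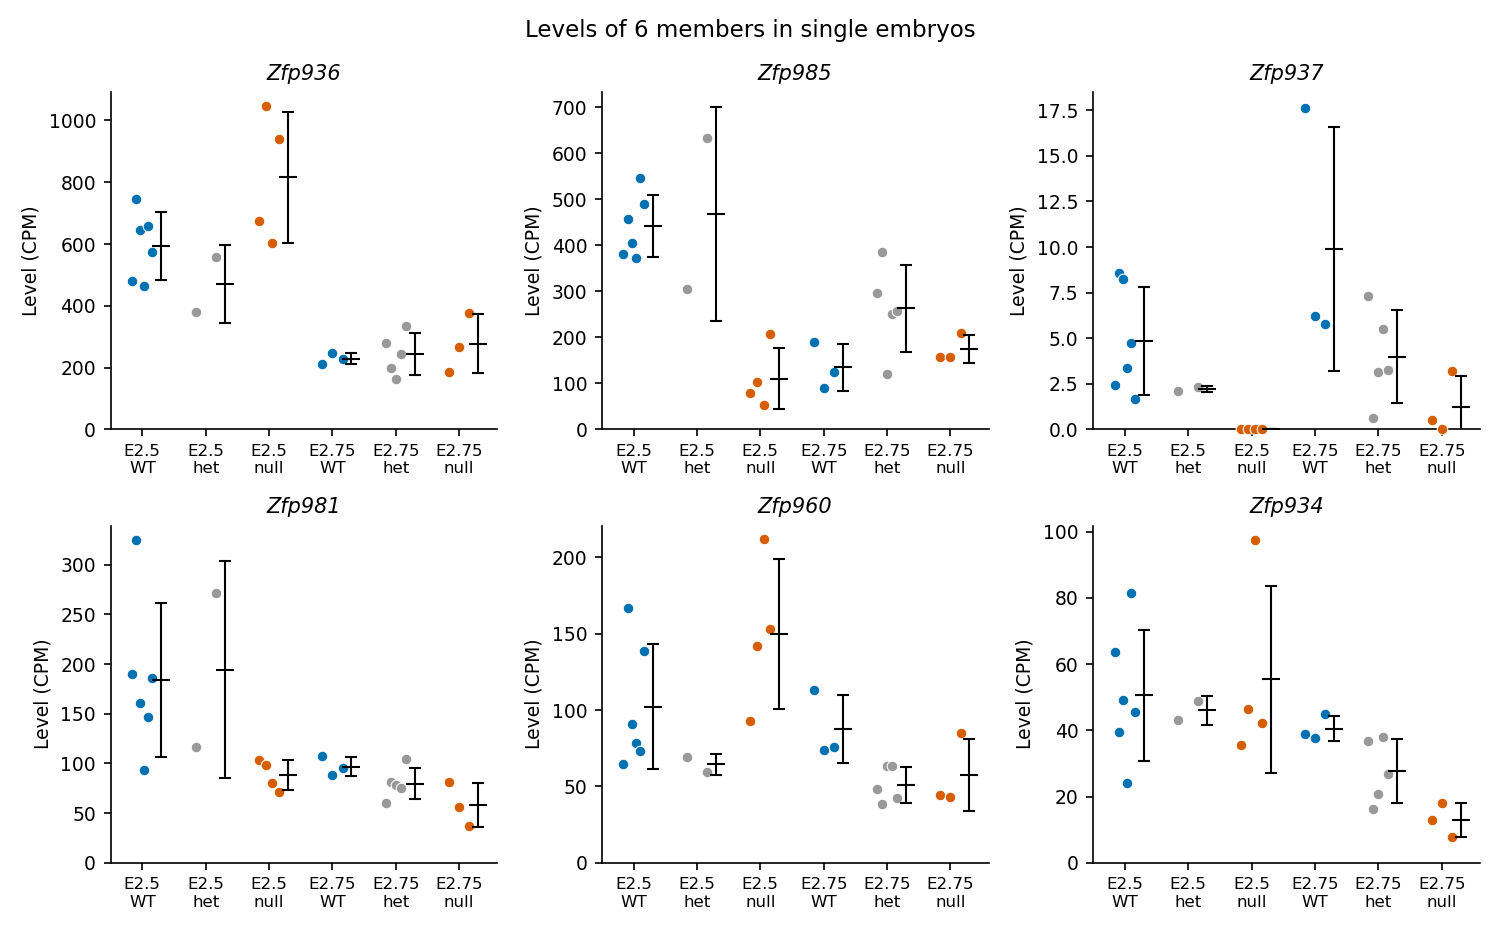
Levels in CPM of 6 members in single embryos of the 6 groups; points are embryos and the bars give the mean ± SD. Zfp985 in E2.5 null embryos (53.1 to 206 CPM) lies below all other E2.5 embryos (304 to 632 CPM), Zfp937 is at 0 in the same 4 embryos, and Zfp936 does not overlap between the stages.

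*Zfp981*, a neighbour of *Zfp985* in the chromosome 4 cluster, showed a smaller difference. Wild-type embryos ranged from 93 to 325 CPM at E2.5 with a median of 174, and the null embryos were at 103, 98.7, 80.6 and 71.5 CPM. The lowest wild-type embryo lay within the null range. At E2.75 the wild-type embryos were at 107, 88.6 and 95 CPM and the null embryos at 81.3, 55.9 and 37 CPM, without overlap. The merged call of *Zfp981* was lost in 6 of 23 fits that left out 1 embryo (E2.5 null replicate 4, E2.5 wild-type replicates 1, 2 and 6 and E2.75 null replicates 2 and 3). Over the 23 fits the value lay between -1.13 and -0.82. The call of *Zfp985* against wild-type held in all 23 fits and that against het in 18 (-1.37 to -0.98), being lost without E2.5 het replicate 2, E2.5 null replicates 1, 2 or 3 or E2.75 het replicate 2.

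At E2.5 the 16 genes of the chromosome 4 cluster summed to 1089 ± 169 CPM (n = 6) in wild-type embryos. The sums were 1075 ± 415 CPM (n = 2) in het and 539 ± 196 CPM (n = 4) in null embryos. The ranges of 891 to 1359, 782 to 1368 and 410 to 830 CPM put wild-type and null apart. *Zfp985* gave much of this. Without it the cluster was at 518 to 902 CPM in wild-type and 357 to 623 CPM in null embryos, which overlapped. In null against wild-type at E2.5, 12 of the 14 tested genes (85.7%) lay below 0, against 52.3% of all genes. *Zfp985* alone was called. The median of the 14 was -1.02, against -0.05 over all genes. Within the cluster only *Zfp985*, *Zfp990* and *Zfp933* have at least 50% unique words. Over all members tested in this comparison, the median was 0.00 for those with at least 50% unique words and -0.74 for those under 50%. At E2.75 the cluster stood at 466 ± 82.4, 556 ± 99.7 and 409 ± 63.2 CPM, and the ranges overlapped. The chromosome 7 cluster was at 752 to 1238 CPM in null and 657 to 988 CPM in wild-type embryos of E2.5, which overlapped.

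*Zfp960* and *Zfp934* were called in 1 genotype comparison each. *Zfp960*, on chromosome 17 outside the cluster and with 15.8% unique words, was at 92.7, 142, 212 and 153 CPM in null and 69.2 and 59.7 CPM in het embryos of E2.5. At E2.75 it was at 44.4, 43.1 and 85 CPM in null and 38.3 to 63.7 CPM in het embryos. Null and het embryos were thus apart at E2.5 and overlapped at E2.75. Wild-type embryos ranged from 64.9 to 167 CPM at E2.5, which overlapped both, and from 73.7 to 113 CPM at E2.75. The call was lost without E2.5 null replicates 2, 3 or 4 or E2.75 het replicates 1, 2 or 5, with 0.76 as the lowest value, and with the spike-in scaling the sign turned (-0.31, adjusted p = 0.477). *Zfp934* (chr13:62479827-62571199, minus strand) was at 38.9, 37.7 and 44.9 CPM in wild-type and 12.8, 18 and 7.75 CPM in null embryos of E2.75, with het embryos between 16.3 and 38 CPM. Its log2 fold change of -1.72 (SE 0.49, adjusted p = 0.0826) made 1 call down and 0 up in null against wild-type at E2.75, where 2.35% of all genes fell and 2.19% rose. This call held in only 2 of the 11 fits without 1 embryo, and the value there lay between -2.04 and -1.45. At E2.5 the 2 genotypes overlapped, at 24 to 81.4 CPM in wild-type and 35.6 to 97.4 CPM in null embryos. Null against het at E2.75 called 0 of 49 members by edgeR (9 at an unadjusted p under 0.05, 5 by DESeq2), where 2.31% of all genes fell and 2.51% rose. Of all 14442 genes 2448 had an unadjusted p under 0.05, and DESeq2 called 956 up and 722 down of 15937.

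Other members with large fitted differences did not pass the test. Most were of low level, but *Zfp930* (107 CPM on average), *Zfp950* (99.6 CPM) and *Zfp982* (49.2 CPM) were not. With the stages merged, the largest rises in null against het embryos were those of *Zfp974* (3.22, adjusted p = 0.156), *Zfp938* (1.56), *Zfp959* (1.20), *Zfp994* (1.20) and *Zfp950* (1.07, adjusted p = 0.103). The largest differences in the other direction, beside *Zfp937* (-2.59, adjusted p = 0.175), were those of *Zfp931* (-1.87), *Zfp956* (-1.65), *Zfp941* (-1.39) and *Zfp993* (-1.35). *Zfp974* illustrates the spread of such genes, at 5.17 to 36.4 CPM in null and 1.84 to 2.69 CPM in het embryos of E2.5 but 0 to 1.54 and 0 to 1.21 CPM at E2.75. The value of *Zfp994* rests on 1 embryo, E2.5 null replicate 4 at 14.3 CPM, and was -1.61 without it. Against wild-type embryos the largest values were those of *Zfp957* (1.82), *Zfp974* (1.20), *Zfp982* (0.85), *Zfp972* (0.70) and *Zfp930* (0.52) above 0, and, beside *Zfp937*, those of *Zfp941* (-2.63), *Zfp993* (-1.75), *Zfp989* (-1.64) and *Zfp931* (-1.38) below 0. *Zfp982* was at 61.1 to 127 CPM in null and 41.8 to 58.7 CPM in wild-type embryos of E2.5, without overlap, at an adjusted p of 0.272 there.

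The machinery through which KRAB zinc finger proteins act was given as a list of 20 corepressor genes, which includes the imprinting factor *Zfp57*. Of 19 tested, 0 rose and 2 fell in null against het embryos, where 3.67% of all genes rose and 2.06% fell. The 2 that fell were the DNA methyltransferases *Dnmt3a* (-1.03, adjusted p = 0.0594) and *Dnmt3b* (-1.74, adjusted p = 0.0146). In null against wild-type 0 were called, where 3.66% of all genes rose and 1.59% fell. *Trim28* itself was at -0.47 (SE 0.34, adjusted p = 0.519) and 0.07 (SE 0.32, adjusted p = 0.964) in these comparisons. From E2.5 to E2.75 in wild-type embryos 1 of 20 tested rose and 2 fell, where 3.74% of all genes rose and 3.64% fell. *Trim28* rose (1.15, SE 0.33, adjusted p = 0.0416), and the remodeller gene *Smarcad1* (-1.07, adjusted p = 0.036) was among those that fell. The median of the list was 0.33 in that comparison.

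POU6F1 peaks were seen at the starts of few members. The consensus of the 2 replicates held 17994 peaks, and 7 of the 63 members (11.1%) had one within 1 kb of a transcription start site, against 61.3% of the other Zfp genes and 47.4% of all protein-coding genes. Only uniquely mapping reads entered the peaks, and the members' start regions were less unique, with a median of 71.7% unique 50-base words against 98.8%. Among genes with at least 90% unique words within 1 kb of their starts, a split chosen after the data were seen, 7 of 17 members (41.2%, Wilson 95% interval 21.6% to 64%) and 179 of 260 other Zfp genes (68.8%, 63% to 74.2%) had a peak. Between 50% and 90% the numbers were 0 of 23 and 6 of 37 (16.2%), and under 50% they were 0 of 23 and 0 of 5. All 7 peaks of members were thus at the most unique starts. How much of the remaining gap comes from uniqueness was not tested.

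**Figure D5:**
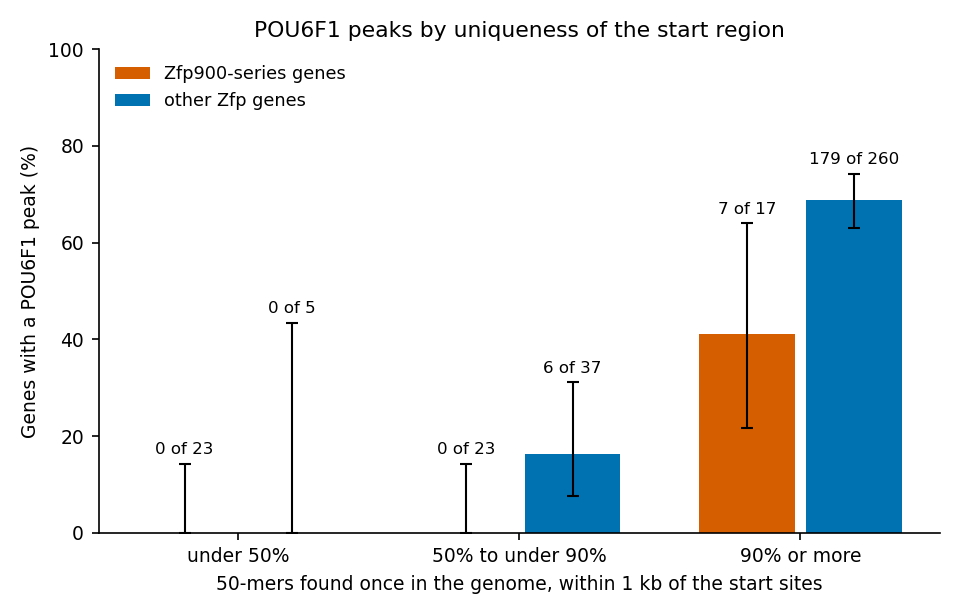
Percentage of genes with a POU6F1 consensus peak within 1 kb of a start site, for the members and the other Zfp genes, in 3 classes of uniqueness of the start region; bars start at 0, lines give Wilson 95% intervals and the labels the counts. Both sets have few or no peaks below 90% unique words, and 7 of 17 members stand against 179 of 260 other genes above it.

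The strongest of these peaks by fold enrichment were at *Zfp946* (19.21 and 8.23 over the control in the 2 replicates, chr17:22423983-22424380, covering the start site) and *Zfp963* (18.68 and 6.77, chr8:69749580-69749773, in an intron 189 bp from the nearest start). *Zfp948* (10.33 and 3.95), *Zfp961* (9.19 and 5.68), *Zfp964* (8.61 and 5.54), *Zfp930* (7.93 and 5.53) and *Zfp938* (7.11 and 4.35) followed. The fold was higher in the first replicate at each of the 7. *Zfp930* and *Zfp946* also had a consensus peak in the second lists, made with another control. The 3 members of the chromosome 8 cluster were all among them and 2 of the 10 of chromosome 17, while the chromosome 2, 4 and 7 clusters had 0. *Zfp964* was also the 1 member promoter with the octamer ATGCAAAT, a site of POU factors, on either strand, where 1.75% of all promoters hold it. The octamer and the CCAAT boxes are in capitals in the 2 promoters that follow and are shown because a peak overlaps both: all 170 bases of *Zfp964* (chr8:69654339-69654508 on the plus strand) and 115 of the 170 bases of *Zfp961* (chr8:71950898-71951067 on the plus strand).
Zfp964: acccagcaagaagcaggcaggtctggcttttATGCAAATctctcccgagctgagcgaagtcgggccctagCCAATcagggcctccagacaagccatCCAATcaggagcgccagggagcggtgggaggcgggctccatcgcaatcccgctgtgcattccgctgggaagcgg
Zfp961: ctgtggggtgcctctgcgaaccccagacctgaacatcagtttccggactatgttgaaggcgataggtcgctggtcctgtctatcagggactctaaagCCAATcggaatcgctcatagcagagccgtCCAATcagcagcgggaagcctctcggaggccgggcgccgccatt

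The other motif searched for this factor class, TAATGA, was in 18.9% of member promoters, mostly those of the near-identical chromosome 2 genes, and in 9.99% of all promoters. In windows of 200 bases around the peak centres, 0 of the 7 member peaks held TAATGA, against 1.82% of all consensus peaks. The octamer was in 0 of these windows against 0.672%, but the window at *Zfp964* begins within the octamer shown above, which the whole peak covers. CCAAT was in 3 of 7 windows (*Zfp938*, *Zfp961* and *Zfp964*) against 22.1%. In embryos, *Pou6f1* was at 10.7 ± 9.24 CPM (n = 6) in wild-type, 12.2 ± 5.9 CPM (n = 2) in het and 44.2 ± 22.1 CPM (n = 4) in null embryos of E2.5. The E2.5 ranges of wild-type (3.34 to 28.5 CPM) and null embryos (21.6 to 65.9 CPM) overlapped. At E2.75 all 3 genotypes overlapped. Wild-type was at 36.7 ± 16.6 CPM (n = 3), het at 18 ± 10.4 CPM (n = 5) and null at 40.2 ± 33.2 CPM (n = 3). Of the 7 members with a peak, 0 were called in null against het or null against wild-type embryos. Of all genes 3.67% rose and 2.06% fell in the first comparison, and 3.66% and 1.59% in the second. *Zfp946*, *Zfp964* and *Zfp963* averaged only 0.55, 1.43 and 2.37 CPM, and 2 of the 3 chromosome 8 members were tested. So few genes cannot decide whether peaks and levels go together. Among the members with a peak, *Zfp961* had the highest level per kb after *Zfp930*. At E2.5 *Zfp961* was at 40.7 to 125 CPM in wild-type and 72.4 to 95.7 CPM in null embryos, and *Zfp930* at 59.5 to 191 and 39.3 to 354 CPM. The binding was measured in stem cells and the levels in embryos, so the 2 were not compared in the same cells.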

How the data were processed

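For the RNA-seq, the authors used Cutadapt 3.4 for trimming, STAR 2.7.8a for alignment to GRCm38 and HTSeq 0.11.4 (intersection-strict, no strand) for gene counts. The deposited values are whole-number counts. For the ChIP-seq, the deposited MACS2 2.2.7.1 peak lists of uniquely mapping reads give a score, a fold enrichment over the control (a ratio) and p and q values as -log10. By the study's numbering, the first list of each replicate was called against IgG and the second against cells with mCherry alone. The labels name 1 library of each control for the 2 replicates. The first lists of both replicates were intersected with bedtools 2.31.1 at 1 bp or more.

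Embryos were grouped by their labels. Counts without spike-ins and summary lines entered edgeR 4.0.16 (R 4.3.3; quasi-likelihood test, TMM, filterByExpr, Benjamini-Hochberg over all genes tested; calls at adjusted p under 0.1 and log2 fold change beyond 1). The stages were merged by genotype, then tested apart, and 6 groups of stage and genotype were fitted together. The fits were tested on simulated data. Alternatives were DESeq2 1.42.0, other scalings, filters, covariates and leaving out each embryo. Named members are those called, the 5 highest per kb, the 5 largest changes in each direction of null against het and against wild-type, and those with a peak. One gene of the corepressor list is not reported here. The members and lists were chosen with earlier results of these data known.

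A k-mer of 50 bases was called unique when found once on either strand of GRCm38.p6. Fingers, KRAB and 6 DNA motifs were searched as patterns, on both strands for DNA. The 6 motifs and the peak windows were chosen after the data were seen. Intervals and limits cover counting error only.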

Additional observations from a re-analysis of the deposited data

Results flagged for a closer look

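In groups of 4 to 10 embryos, 95 series of values of named members were tested for 1 embryo standing apart. Dixon's test at 95% on log2(CPM + 1) flagged 8. Chance flags about 1 in 20 groups of continuous values, a rate that does not hold where most values are 0. With all other embryos at 0, any value above 0 is flagged whatever its size. *Zfp946* was at 5.39 CPM in E2.5 wild-type replicate 1, with the others at 0.097 to 0.222 CPM, and at 0.235 CPM in E2.5 null replicate 4, with the others at 0. *Zfp994* was at 14.3 CPM in E2.5 null replicate 4, with the others at 0 to 0.305 CPM. *Zfp964* was at 0.305 CPM in E2.5 null replicate 3, with the others at 0. Among E2.75 het embryos, *Zfp957* was at 1.99 CPM in replicate 3 (others 0 to 0.317), *Zfp959* at 9.32 CPM in replicate 1 (others 0 to 0.904), *Zfp993* at 0.904 CPM in replicate 2 (others 1.68 to 1.91) and *Zfp958* at 54.3 CPM in the same replicate 2 (others 151 to 215). Of these 7 genes, *Zfp958* alone is of high level. Its call with stage over all genotypes (-1.05, near the threshold of 1 in size) was lost without that embryo. The call was also lost without E2.5 null replicate 2, E2.75 null replicate 1 or E2.75 wild-type replicate 2.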

How the results depend on the processing

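The number of embryos limits the small groups, such as the 2 het embryos of E2.5. Among the E2.75 null libraries 1 held 1690192 and another 1914128 counts, against a median of 8030848 over all 23. Under 50% of the exon words are unique in 26 members. Leaving out 1 embryo moved the number of called members to 0 to 4 (up, null against het), 0 to 2 (down, null against het), 2 to 4 (down, null against wild-type), 0 to 1 and 1 to 2 (null against het and against wild-type at E2.5), 0 to 1 in both at E2.75, 2 to 6, 2 to 11 and 0 to 1 (stage in wild-type, null and het embryos), 7 to 16 (stage over all genotypes) and 0 to 1 (interaction with null against wild-type, 1 without E2.5 null replicate 4). Het against wild-type and the interaction with null against het stayed at 0.

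In null against het embryos the 1 member called up became 3 with DESeq2, 2 with median-of-ratios size factors and 0 without the filter, with the replicate block, with the spike-ins or with stage as a covariate, and the 1 called down became 2 with DESeq2, 0 with the replicate block, 20 with the spike-ins and 3 with the covariate. With the spike-ins 4487 of all 13415 genes were called down in null against het (1916 of 15904 at E2.5 and 2164 of 14442 at E2.75). Against wild-type 469 of 13415 genes were called down with the spike-ins, and 746 of 14442 at E2.75. For stage in null embryos 1969 genes were called up and 39 down of 18677 with the spike-ins. In null against wild-type the 3 called down became 6 with DESeq2, 1 with the replicate block, 6 with the spike-ins and 1 with the covariate. Of all genes, DESeq2 called 544 of 18422 down in null against het and 477 in null against wild-type. The replicate block called 199 and 151 of 13415, and the covariate 284 and 296. Called up in null against het were 1240 of 18422 genes with DESeq2 and 510 of 13415 with median-of-ratios size factors. Without the filter 1266 of 33616 were called up. With the replicate block, the spike-ins and the covariate 371, 289 and 486 of 13415 were called up. At E2.5 the 0 of null against het became 2 with DESeq2, 1 without the filter and 9 with the spike-ins, and the 2 against wild-type became 5 with DESeq2 and 1 with the replicate block. At E2.75 the 0 against het became 5, 1 and 11, and the 1 against wild-type 9 with DESeq2, 3 without the filter, 0 with only the 2 genotypes, 0 with the replicate block and 3 with the spike-ins. For stage, the 4 of wild-type embryos became 9 with DESeq2 and 0 with the spike-ins. The 8 of null embryos (7 down and 1 up) became 16 with DESeq2 and 2 with the spike-ins, both of them up. The 0 of het embryos became 2 with DESeq2. The 14 over all genotypes became 8 without the filter, 5 with the spike-ins (all up) and 8 over members with at least 50% unique words. At E2.5 DESeq2 called 449 up and 149 down of 14985 genes against het, and 781 and 479 of 15924 against wild-type. At E2.75 it called 956 and 722 of 15937, and 1160 and 834 of 15417. For stage it called 950 and 998 of 16316 in wild-type and 798 and 582 of 15159 in null embryos. Over all genotypes it called 1759 and 873 of 18866. The interaction with null against wild-type gave 3 members with DESeq2 and 1 without the filter. Of all genes it gave 220 up and 124 down of 15748, and 126 and 95 of 33616. Without the filter, 2421 genes were called up and 746 down of 33616 for stage over all genotypes. The 7 members with a peak became 3 with an overlap of 50% of each peak, 2 at a -log10 q of 10 and 2 with the second lists. The 47.4% of all protein-coding genes with a peak became 22.2%, 18.5% and 15.3%. Apart from the smaller gene or sample sets, the cause was not tested.

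In null against het embryos the sign turned with the spike-ins for *Zfp960* (-0.31), *Zfp950* (-0.14), *Zfp959* (-0.20) and *Zfp994* (-0.37), and for *Zfp994* also with the replicate block (-0.72) and without E2.5 null replicate 4 (-1.61, up to 2.06 without another embryo). The replicate numbers do not pair the embryos. Over 44 pairs of the same number the median correlation of deviations was -0.00721 (-0.108 to 0.0858), and 3 of 23 embryos matched their own number best.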
